A study of Mus musculus with 22 samples.

Results

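The Reg family is a set of small secreted C-type lectins, and it was read here as the 7 genes Reg3b (named Pap on the array), Reg3g, Reg3a, Reg3d, Reg1, Reg2 and Reg4. Members were the probes whose gene name in the scanner files equals one of these names, which gave 7 genes with 1 probe each out of 27670 gene names on the array. Levels came from 22 one-colour Agilent arrays of total RNA from whole intestine of male C57BL/6 mice fed chow. The arrays fall into 6 groups: SIRT1 iKO aged colon (n = 4) and flox control aged colon (n = 3), iKO aged ileum (n = 4) and flox aged ileum (n = 3), and iKO young ileum (n = 4) and flox young ileum (n = 4). Aged mice were 24 months old and young mice 6 to 8 weeks old. The labels do not spell out iKO, do not name the part of Sirt1 removed or the driver of the deletion, and do not state if 1 mouse gave both tissues. Flox is their name for the control mice.

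Reg3b and Reg3g are made by Paneth cells and enterocytes, bind bacterial cell walls and keep bacteria away from the epithelial surface. In the mouse gut they are induced by bacterial signals and by IL-22 acting through STAT3 in epithelial cells. Reg1 and Reg2 are best known as secretory proteins of pancreatic acinar cells and of regenerating epithelium, and Reg4 is known from enteroendocrine and deep crypt secretory cells.

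Of the 7 members, 6 lie together within 97.99 kb of chromosome 6 in GRCm38.p6, in the order Reg3b, Reg3d, Reg3a, Reg2, Reg1, a pseudogene (Gm52853) and Reg3g. Reg4 lies alone on chromosome 3. Probes of such a family can cross-hybridise with transcripts of other members, which was not tested. The probes were compared with each other only. The 60-base probes of all pairs of members shared no run longer than 8 bases, the longest between Reg2 and Reg3d. A window of 30 bases of each probe is shown for the closely related pairs Reg3b with Reg3g and Reg1 with Reg2, with capitals on the longest run shared inside the pair (probe coordinates are in mm7, as the array files give them).
Reg3b probe, chr6:78391237-78391296, plus strand: gtgaagactcACCTAGaaaaagcattttct
Reg3g probe, chr6:78484334-78484393, minus strand: gggttgatatatACCTAGccacaagcaaga
Reg1 probe, chr6:78446441-78446500, plus strand: gcaaattagatccTGTCTtcctggagagac
Reg2 probe, chr6:78425873-78425932, plus strand: acagtactccttTGTCTgcaagttcagagc
The shared run was 6 bases for Reg3b with Reg3g and 5 bases for Reg1 with Reg2.

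The same pairs were closest in their promoters. Over the 250 bases before the start, Reg3b and Reg3g were identical at 177 of 257 aligned positions (68.9%), and Reg1 and Reg2 at 162 of 277 (58.5%). The 100 bases before each start, from RefSeq and GRCm38.p6 and read in the direction of the gene, are shown because these 4 genes had the widest spread among the iKO colon arrays, with capitals on the motif TATAAA.
Reg3b promoter, chr6:78370785-78370884, plus strand: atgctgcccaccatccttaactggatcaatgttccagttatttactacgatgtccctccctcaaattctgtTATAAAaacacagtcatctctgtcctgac
Reg3g promoter, chr6:78468875-78468974, minus strand: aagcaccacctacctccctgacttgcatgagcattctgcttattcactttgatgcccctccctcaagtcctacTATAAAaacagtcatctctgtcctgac
Reg1 promoter, chr6:78425883-78425982, plus strand: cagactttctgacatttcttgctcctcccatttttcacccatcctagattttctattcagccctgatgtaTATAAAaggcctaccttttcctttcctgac
Reg2 promoter, chr6:78405055-78405154, plus strand: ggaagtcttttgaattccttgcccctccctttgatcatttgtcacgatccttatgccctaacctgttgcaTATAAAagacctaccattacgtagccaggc
The last 20 bases before the start were identical in Reg3b and Reg3g. On the gene's strand TATAAA began at -29 in Reg3b, -27 in Reg3g, -30 in Reg1 and -30 in Reg2, and Reg3g had a second match on the opposite strand at -161. It was not found in the same 250 bases of Reg3a, Reg3d or Reg4, and 12.4% of 32851 promoters held it on either strand. The STAT-type motif TTCNNNGAA, which reads the same on both strands, was found once in Reg3b (at -129) and once in Reg3d (at -238), against 7.02% of all promoters. These matches describe letters and were not tested as binding sites.

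All levels below are log2 signals relative to the 75th percentile of the same array, on the scale of that member's own probe, so levels of different members are not compared. In whole tissue, fewer cells of a type and less RNA per cell cannot be told apart. Between 70.4% and 79.7% of spots were well above background on colon arrays and between 49.8% and 61.5% on ileum arrays. Sirt1 itself was 0.70 ± 0.04 in iKO and 0.92 ± 0.24 in flox young ileum (SD, n = 4 each), 0.32 ± 0.04 in iKO (n = 4) and 0.82 ± 0.25 in flox aged ileum (n = 3), and 0.50 ± 0.15 in iKO (n = 4) and 0.78 ± 0.02 in flox colon (n = 3). It passed in 0 of these 3 genotype comparisons by limma (adjusted p = 0.999, 0.177 and 0.622), and whether its probe lies in the deleted part is not stated in the labels.

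Among the 22 arrays, 4 stood apart in ways that touch Reg genes. Aged ileum iKO replicate 2 and aged ileum flox replicate 1 carried colon-type signals: Car1, a carbonic anhydrase of colon epithelium, was 7.79 and 8.18 there, and Aqp8, a colonic water channel, 5.57 and 6.55. Summed over 7 colon markers these arrays stood at 8.18 and 8.65, against 2.96 to 4.39 on the other 13 ileum arrays. Hoxb13, a marker of the distal colon, was not raised there, at -6.11 and -6.37. Hoxd13, another of the colon markers, had a mean of -3.94 in iKO and -5.62 in flox aged ileum. Its means in the young ileum were -6.33 in iKO and -6.11 in flox, and it did not enter the ileum tests. Aged colon iKO replicate 4 had all 15 exocrine pancreas markers on the array well above background and the highest colon value for 13 of them, and their summed level was 6.26, against 3.81 to 4.86 on the other 6 colon arrays. Young ileum flox replicate 3 had a Saa1 level of 1.77, against 6.70 to 8.04 on the other young flox arrays.

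**Figure D1:**
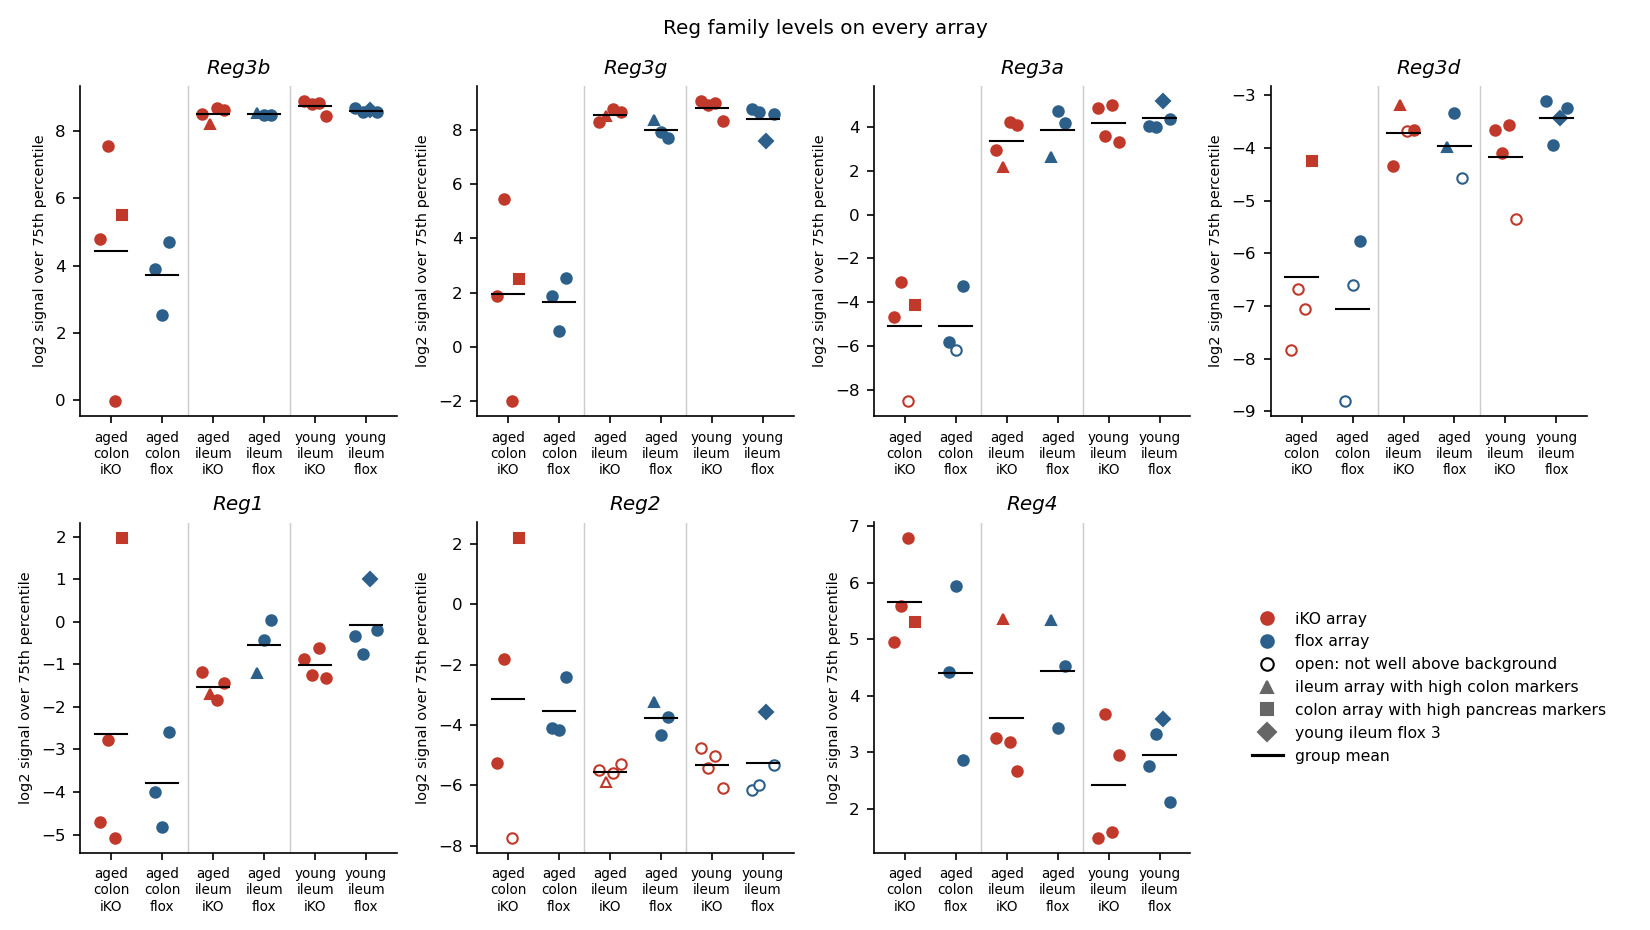
Level of each Reg gene on every array (log2 signal over the 75th percentile of the array, y axis) in the 6 groups (x axis), with iKO in red, flox in blue, open symbols where the probe was not well above background, other shapes for the 4 arrays that stood apart and a line at each group mean. Reg3b lies within 8.22 to 8.90 on all 15 ileum arrays and spreads from -0.04 to 7.55 on the 7 colon arrays.

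Reg3b, the member also called pancreatitis-associated protein, was high and nearly constant in the ileum. It was 8.52, 8.22, 8.69 and 8.62 in iKO and 8.53, 8.49 and 8.49 in flox aged ileum. In the young ileum it was 8.90, 8.81, 8.83 and 8.44 in iKO, against 8.71, 8.56, 8.62 and 8.58 in flox. The groups overlapped at both ages. In the colon the same probe gave 4.78, 7.55, -0.04 and 5.49 in iKO, against 3.91, 2.53 and 4.72 in flox. The flox colon arrays lay inside the range of the iKO colon arrays, which spanned 193-fold in signal.

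Reg3g, its closest relative and a lectin that binds Gram-positive bacteria, was more variable in the ileum. It was 8.31, 8.51, 8.79 and 8.69 in iKO, against 8.38, 7.94 and 7.71 in flox aged ileum. In the young ileum it was 9.08, 8.92, 8.99 and 8.36 in iKO, against 8.77, 8.66, 7.58 and 8.58 in flox. The low value of 7.58 belongs to flox replicate 3, the array with little Saa1. The colon gave 1.86, 5.44, -2.01 and 2.49 in iKO, against 1.88, 0.57 and 2.55 in flox. The order of the iKO colon arrays was the same as for Reg3b, with replicate 2 highest and replicate 3 lowest, and they spanned 176-fold. Ileum signals of Reg3b reached 57.0% to 73.9% of the saturation value and those of Reg3g 27.7% to 78.9%, none flagged as saturated, and any compression near the top of the scale was not tested.

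Reg3a was measured on every ileum array and on 5 of 7 colon arrays. It was 2.96, 2.20, 4.22 and 4.09 in iKO and 2.62, 4.76 and 4.19 in flox aged ileum. The lowest ileum values, 2.20 and 2.62, were those of the arrays with colon markers. In the young ileum it was 4.89, 3.61, 5.001 and 3.32 in iKO, against 4.07, 4.00, 5.20 and 4.37 in flox. The colon gave -4.68, -3.10, -8.53 and -4.11 in iKO, with 3 of 4 arrays well above background, against -5.80, -6.17 and -3.26 in flox, with 2 of 3. No colon array reached any ileum array.

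Reg3d lay near the background everywhere. It was well above background on 14 of 22 arrays, 12 of them from the ileum, with ileum levels of -5.34 to -3.11 and colon levels of -8.81 to -4.24. Its highest colon level, -4.24, was on iKO replicate 4, the array with pancreas markers.

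Reg1, a secretory protein of pancreatic acinar cells and of regenerating epithelium, was above background on all 22 arrays. In the aged ileum it was -1.19, -1.70, -1.84 and -1.44 in iKO, against -1.21, -0.44 and 0.03 in flox. The young ileum gave -0.88, -1.24, -0.62 and -1.32 in iKO, against -0.34, -0.76, 1.01 and -0.20 in flox, where 1.01 is again flox replicate 3. The highest iKO array reached the lowest flox array at each age, so the groups overlapped at their edges. The colon gave -4.70, -2.78, -5.07 and 1.98 in iKO, against -3.99, -4.82 and -2.59 in flox, so that only iKO replicate 4 stood high.

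Reg2, its neighbour in the cluster, was a low signal in the ileum. In the aged ileum it was -5.48, -5.90, -5.58 and -5.28 in iKO, where no array was well above background, against -3.25, -4.33 and -3.73 in flox, where all 3 were. The iKO values are background readings, so the distance between these 2 groups is not exact. In the young ileum it was well above background on 0 of 4 iKO arrays (-6.09 to -4.75) and on 1 of 4 flox arrays (-6.14 to -3.56), namely flox replicate 3. The colon gave -5.27, -1.81, -7.74 and 2.21 in iKO, with 3 of 4 arrays well above background, against -4.09, -4.16 and -2.41 in flox. The iKO arrays spanned 987-fold, from a signal of 6.68 on replicate 3 to replicate 4, the array with pancreas markers. A signal so low makes this span inexact.

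Reg4, a product of enteroendocrine and deep crypt secretory cells, had a different pattern. In the colon it was 4.95, 5.59, 6.80 and 5.31 in iKO, against 4.42, 5.95 and 2.86 in flox. The aged ileum gave 3.25, 5.35, 3.18 and 2.68 in iKO, against 5.34, 3.43 and 4.52 in flox. The 2 ileum arrays with colon markers held the highest Reg4 of all ileum arrays, 5.35 and 5.34. In the young ileum it was 1.49, 3.68, 1.59 and 2.95 in iKO, against 2.76, 3.33, 3.58 and 2.11 in flox.

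The Reg genes varied widely among arrays of 1 group, and most of all in the colon. Of the 14 combinations of member and colon group, 12 had an SD over 1 log2 unit, and of the 28 in the ileum 4 did. All 14 colon SDs, and 26 of the 28 ileum SDs, were above the median SD of the genes tested in that group, which ran from 0.16 to 0.22. The 2 exceptions were Reg3b in aged flox (SD 0.026) and young flox (SD 0.065) ileum. Among genes whose mean lay within 1 log2 unit all 14 colon SDs but 24 of the 28 ileum SDs were above most others. Reg2, at background in the iKO ileum, had an SD above 9.23% of such genes in aged and 41.8% in young mice. In the iKO colon the SD was 4.32 for Reg2, 3.24 for Reg1, 3.21 for Reg3b and 3.07 for Reg3g (n = 4 each). At least 99.9% of the genes tested in that group had a lower SD than each of these 4. Single arrays set much of this spread. Without iKO replicate 4 the SD was 1.23 for Reg1 and 2.98 for Reg2, and without iKO replicate 3 it was 1.44 for Reg3b, 1.91 for Reg3g and 0.80 for Reg3a (2.37 with it). In the flox colon (n = 3) the SDs of Reg2, Reg1, Reg3b and Reg3g were 0.99, 1.13, 1.11 and 1.01. Normexp background correction left 10 of the 42 combinations over 1, and quantile normalization 17, against 16 here. With normexp the SD of Reg2 in the iKO colon was 3.00. Labels do not say that replicates were separate mice, so p-values measure only the spread between these samples.

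**Figure D2:**
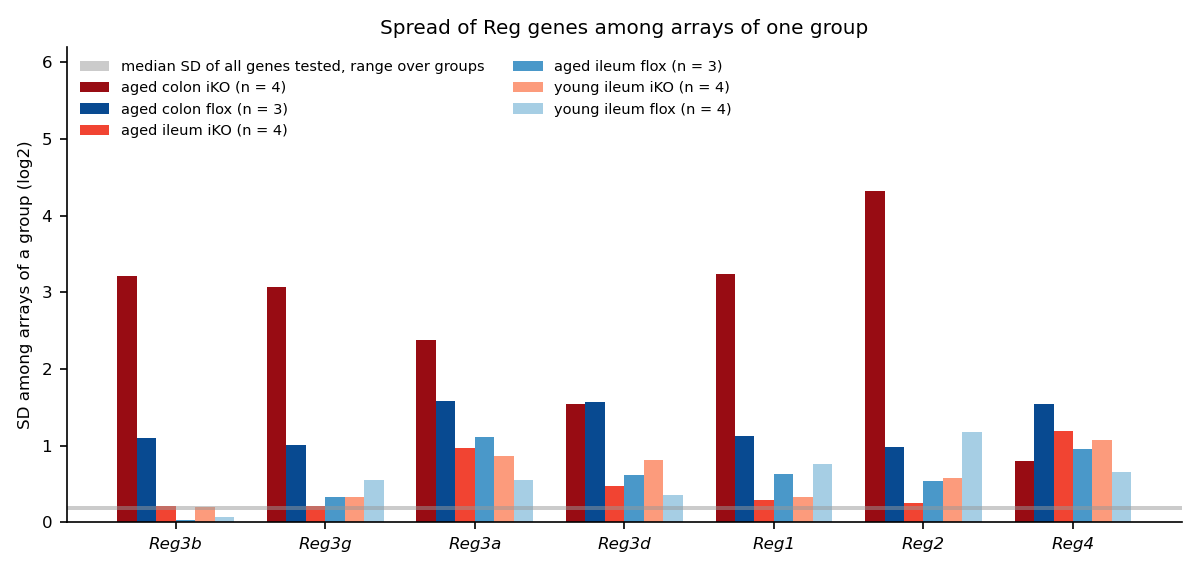
Standard deviation of each Reg gene among the arrays of a group (log2 units, y axis, bars starting at 0) for the 6 groups, with the grey band giving the range over groups of the median SD of all genes tested. The 4 tallest bars are Reg2, Reg1, Reg3b and Reg3g in the iKO colon, at 4.32, 3.24, 3.21 and 3.07, of which Reg1 falls to 1.23 without replicate 4 and Reg3b and Reg3g to 1.44 and 1.91 without replicate 3.

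Whether members varied together inside groups was asked pair by pair. Deviations of each array from its group mean were correlated over the 15 ileum arrays for the 5 members well above background on each of them, and over the 7 colon arrays for the 4 such members, which made 16 pairs. Exact permutation within groups gave two-sided p-values. In the colon, Reg3b and Reg3g had Pearson r = 0.987 (permutation p = 0.00694, adjusted p = 0.0918 over 16 pairs) and Spearman rho = 0.929 (p = 0.0139, adjusted p = 0.136). In the ileum the same pair had r = 0.449 (p = 0.0556, adjusted p = 0.148) and rho = 0.454 (p = 0.0722, adjusted p = 0.194). Reg3a and Reg4 ran opposite in the ileum, with r = -0.737 (p = 0.0139, adjusted p = 0.0918) and rho = -0.743 (p = 0.017, adjusted p = 0.136). Without the 2 aged ileum arrays with colon markers, which are also the 2 farthest from the median of Reg3a, that r was -0.54 (permutation p = 0.171). Reg3a went with Reg3b at r = 0.607 (p = 0.0209, adjusted p = 0.0918; rho = 0.425, p = 0.134) and with Reg1 at r = 0.592 (p = 0.023, adjusted p = 0.0918; rho = 0.5, p = 0.0884). Without the 2 arrays farthest from the median of the member named first these were 0.63 for Reg3a with Reg3b and 0.57 for Reg1 with Reg3a. Reg1 and Reg3g had r = -0.686 (permutation p = 0.0517), which was -0.12 without those 2 arrays and so rested on them. Of the 16 pairs 0 passed after adjustment, and 4 had an unadjusted permutation p under 0.05. The arrangements of the colon arrays allow no p under 0.00694, the value of Reg3b with Reg3g, so 1 colon pair alone could not have passed over 16 pairs.

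The genes most like each member were sought among 15464 genes over the 15 ileum arrays, by Pearson r of the deviations from the group mean. For Reg3g the nearest 3 were Saa1 (r = 0.972, rho = 0.975), Saa3 (r = 0.970, rho = 0.964) and Saa2 (r = 0.967, rho = 0.961), the serum amyloid A genes of the gut epithelium and liver, whose probes may not tell the near-identical Saa1 and Saa2 apart. An unnamed transcript (NAP065157-1, r = 0.957) and Sdc3, a cell-surface proteoglycan (r = 0.956), followed. These genes were chosen for their likeness, so no p is given. Without young flox replicate 3 and young iKO replicate 4, the 2 arrays farthest from the median of Reg3g, r was 0.954 for Saa1, 0.948 for Saa3 and 0.960 for Saa2 over 13 arrays. With slide as a fixed factor r was 0.967 for Saa1.

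Defence genes also varied with Reg3g, over a list chosen with earlier results of these data known, so no p is given. Of 16 inducible epithelial defence genes tested in the ileum, 12 had r over 0.5 with Reg3g, with a median of 0.796. Over all 15464 genes 8.63% had r over 0.5, with a median of -0.02. Without young flox replicate 3 the list gave 11 of 16 with a median of 0.663, against 9.58% of all genes. The listed genes over 0.5 included Dmbt1, a mucosal scavenger receptor (r = 0.884), and Duoxa2, a maturation factor of the epithelial NADPH oxidase (r = 0.825). Also among them were Nos2, the inducible nitric oxide synthase (r = 0.806), and Fut2, which fucosylates the epithelial surface (r = 0.801). Ang4, a Paneth cell ribonuclease, had r = -0.003 and Ccl20, a chemokine, r = -0.10. For Reg3b the same list gave 1 of 16 over 0.5 (Lcn2, an iron-scavenging lipocalin, r = 0.553) and a median of 0.280, where 7.29% of all genes were over 0.5, and without young flox replicate 3 it gave 6 of 16 and a median of 0.397 (9.05% of all genes). Saa1 had r = 0.292 with Reg3b. For Reg1 the list gave 0 of 16 and a median of -0.51 (15.9% of all genes were over 0.5), and 1 of 16 and -0.24 without that array.

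**Figure D3:**
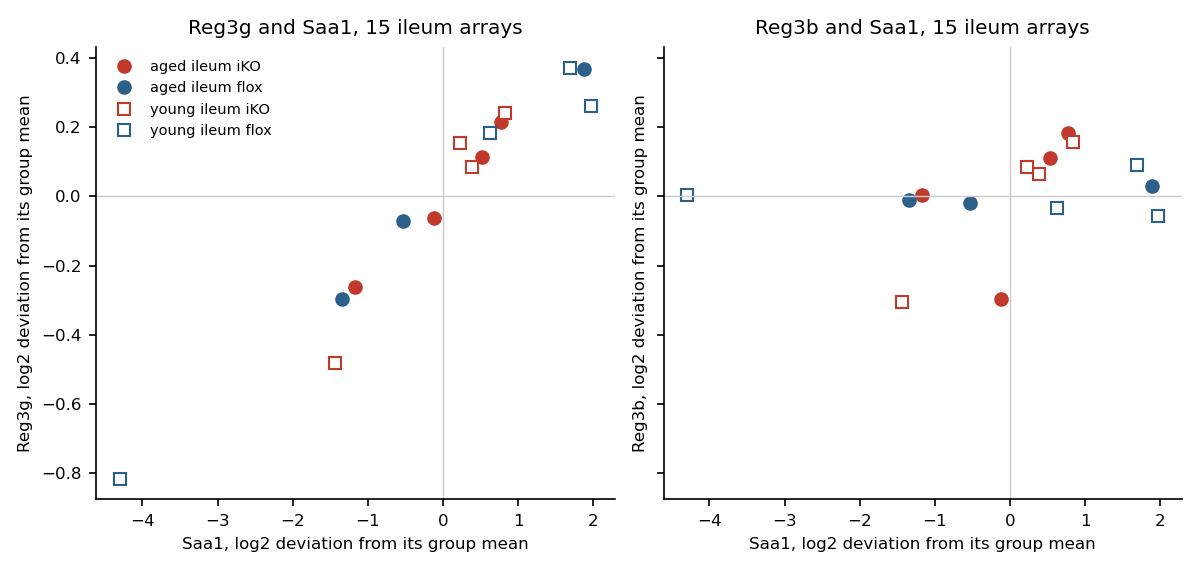
Deviation of Reg3g (left) and Reg3b (right) from its group mean against that of Saa1, in log2 units, 1 point for each of the 15 ileum arrays, with iKO in red, flox in blue, aged as filled circles and young as open squares. Reg3g is higher where Saa1 is higher (r = 0.972), with young flox replicate 3 as the lowest point, and Reg3b has r = 0.292.

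In the colon the values of Saa1 and Reg3g stood as follows. Saa1 was 7.61, 6.91, 7.25 and 6.23 in iKO colon, where Reg3g was 1.86, 5.44, -2.01 and 2.49. In flox colon Saa1 was 7.78, 7.71 and 7.43, where Reg3g was 1.88, 0.57 and 2.55.

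The other members had other nearest genes in the ileum. For Reg3b they were Tanc2 (r = 0.874), Rarres2 (0.839), Ranbp9 (0.83), Kansl1l (0.83) and Tbc1d20 (0.83), and without the 2 arrays farthest from its median, r for these was 0.37 to 0.71. For Reg1 they were Hagh (0.959), Cox7a1 (0.936), Gpx4 (0.926), Cgref1 (0.924) and Ccni (0.916). For Reg3a they were Proc (0.932), Rdh9 (0.921), Rnf128 (0.920), Nyx (0.918) and Ptprr (0.916). Without the 2 ileum arrays with colon markers r for these was 0.83 to 0.89, and the gene nearest Reg3a was then Ufc1 (0.968). For Reg4 they were Pde2a (0.949), Ces1g (0.935), Chaf1a (0.932), Hmga2 (0.930) and Lonp1 (0.925). Without the same 2 arrays r for these was 0.88 to 0.95, and the gene nearest Reg4 was then Sfrs10 (0.961). Of 5 colon markers tested in the ileum, 3 had r over 0.5 with Reg4 (13.5% of all genes did) and 0 with Reg3a. The 2 arrays with colon markers also held the highest Reg4 of the ileum, and no such count without them is given. Reg2 (nearest Cdkn1c, r = 0.903) and Reg3d (nearest Kcmf1, r = 0.935) lay at background on some or most of these arrays, so their likeness rests partly on background values.

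The highest colon levels of Reg1 and Reg2 were on the array with the most pancreas transcript. On iKO replicate 4, where Reg1 was 1.98 and Reg2 2.21, the pancreatic enzyme genes Cela3b, Cpa1 and Cpb1 were at 3.99, 3.56 and 3.21, and Cela2a was at 1.13. On the other 6 colon arrays Cela3b ran from -7.13 to -2.76, Cpa1 from -6.92 to -2.20, Cpb1 from -4.30 to -3.35 and Cela2a from -8.71 to -8.05. The next highest Reg1 and Reg2, -2.59 and -1.81, came from arrays whose summed pancreas markers were 4.23 (flox replicate 4) and 4.00 (iKO replicate 2). Reg3b was highest on iKO replicate 2 (7.55) and lowest on iKO replicate 3 (-0.04), whose summed pancreas markers were 4.00 and 4.86. On the other 3 iKO arrays Reg2 spanned -7.74 (replicate 3, pancreas sum 4.86) to -1.81 (replicate 2, pancreas sum 4.00). On the 6 colon arrays other than iKO replicate 4, Cela3b, Cpa1, Cpb1 and Cela2a lay at -2.20 or lower, far below the summed level. The sums there came mostly from other listed genes, so they do not rank those arrays by pancreas transcript. The part of pancreas tissue in the Reg1 and Reg2 values was not tested.

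**Figure D4:**
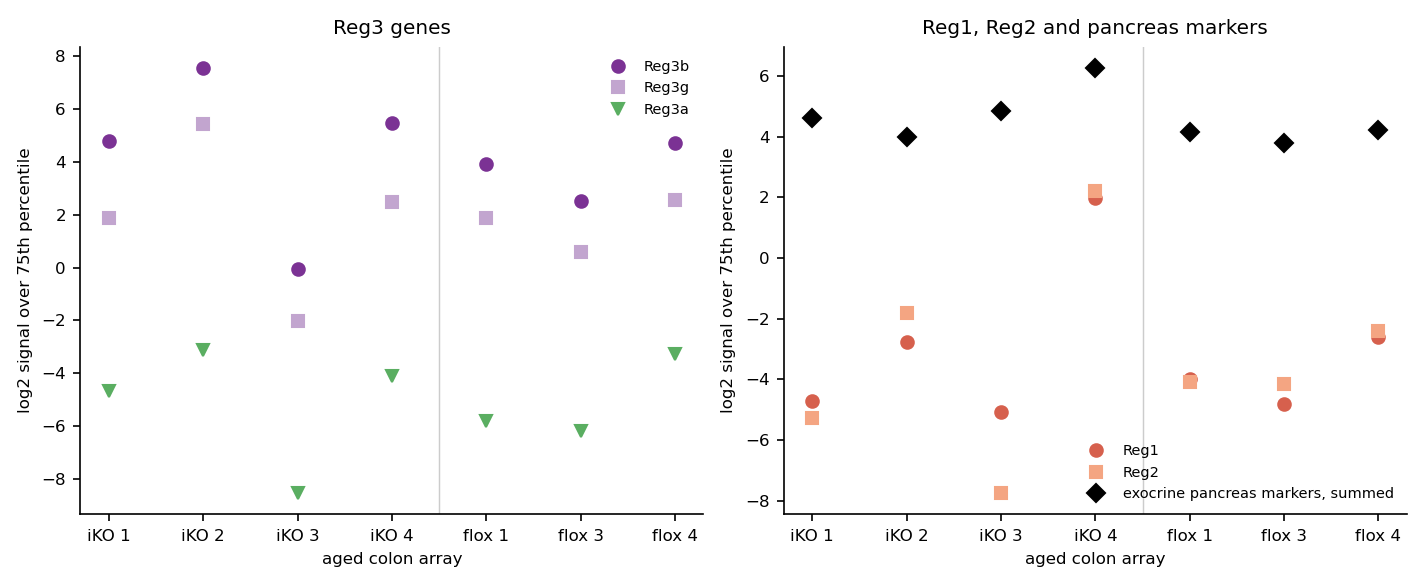
Levels on the 7 colon arrays (x axis, iKO left of flox; y axis in log2 signal over the 75th percentile) of Reg3b, Reg3g and Reg3a (left) and of Reg1, Reg2 and the summed exocrine pancreas markers (right). Reg3b and Reg3g are both highest on iKO replicate 2 (7.55 and 5.44) and lowest on iKO replicate 3 (-0.04 and -2.01), and Reg1, Reg2 and the pancreas markers are highest on iKO replicate 4.

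Whether loss of SIRT1 changed the Reg genes was asked with limma in each tissue and age, with p-values adjusted over all genes tested. In the young ileum 0 of 7 members passed, where 0.0452% of 15482 genes did, and 1 (Reg1) had an unadjusted p under 0.05, as did 641 of all genes. The log2 difference of iKO from flox was 0.44 ± 0.25 (SE) for Reg3g and -0.94 ± 0.34 for Reg1 (adjusted p = 0.999 for each), and 0.17 and -0.58 without young flox replicate 3. Reg3b differed by 0.13 ± 0.11, Reg3a by -0.21 ± 0.56, Reg3d by -0.74 ± 0.38 and Reg4 by -0.52 ± 0.64 (adjusted p = 0.999 for each). Reg2 lay at background on 4 of 4 iKO and 3 of 4 flox arrays, and no difference is given. Each young slide held 1 iKO and 1 flox array. Within slides Reg3g was higher in iKO on 4 of 4 (0.15 to 0.77) and Reg1 lower on 4 of 4 (-2.33 to -0.11). Reg2 aside, the other members were mixed, with iKO higher on 3 of 4 slides for Reg3b, 2 for Reg3a and 1 each for Reg3d and Reg4. How many of all genes had 1 direction on 4 of 4 slides was not counted. Flox sat at position 1 and iKO at position 2 of every young slide, so genotype and position cannot be told apart.

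In the aged ileum 0 of 7 members passed, where 0.168% of genes did, and 2 (Reg2 and Reg1) had an unadjusted p under 0.05, as did 1849 of all genes. Reg2 was measured above background only in flox and was at least 1.32-fold lower in iKO (adjusted p = 0.207). It entered the ileum fit through the aged flox group alone, where it is high, so its p-values in the ileum support no difference. The bound sets the mean of the 3 flox arrays, -3.77, against the lowest signal well above background on the iKO arrays, -4.17, and the measured iKO mean was -5.56. Without young flox replicate 3, which enters through the shared estimate of the spread, the adjusted p of Reg2 was 0.0486, and over the other settings and arrays left out it reached 0.753. Reg1 differed by -1.003 ± 0.37 by limma (adjusted p = 0.321). On the 1 slide that held both genotypes it differed by -1.26, and the iKO array there was replicate 2, which carried colon markers. Reg3g differed by 0.57 ± 0.27 (adjusted p = 0.429), and by 0.15 with slide as a fixed factor. Reg3b differed by 0.01 ± 0.12 (adjusted p = 0.986; -0.03 with quantile normalization). Reg3a, Reg3d and Reg4 differed by -0.49 ± 0.61, 0.24 ± 0.41 and -0.82 ± 0.69 (adjusted p = 0.774, 0.844 and 0.659).

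In the colon 5 members were measured well enough to test and 0 passed, where 0.112% of 19585 genes did, with 0 at an unadjusted p under 0.05, against 1415 of all genes. The differences of iKO from flox were 0.73 ± 1.66 for Reg3b, 0.28 ± 1.58 for Reg3g, 1.16 ± 1.67 for Reg1, 0.40 ± 2.18 for Reg2 and 1.25 ± 0.75 for Reg4 (adjusted p = 0.988, 0.992, 0.970, 0.992 and 0.836). The standard errors of the first 4 were larger than the differences. Without iKO replicate 4 Reg1 was -0.38 and Reg2 -1.39, and without iKO replicate 2 Reg3b was -0.31 and Reg3g -0.89. On the 3 slides that held both genotypes Reg3b differed by -4.76, 1.59 and 5.02. All flox colon arrays sat at position 3 and all iKO colon arrays at position 4, so here too genotype and position cannot be told apart. Reg3a and Reg3d were not well above background on every array of either colon group and were not tested.

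The test of a different genotype effect between ages was passed by 0 of 7 members and by 0 of 15482 genes (0%), as limma gave it. An unadjusted p under 0.05 was reached by 391 of all genes and by 1 member, Reg2, which was well above background in all arrays of 1 of the 4 groups only. The genotype effect in the colon minus that in the aged ileum was passed by 0 of 6 members, where 0.0356% of 19636 genes passed, and 0 members had an unadjusted p under 0.05, against 1177 of all genes. The values of the members other than Reg2 ran from -0.29 ± 1.73 for Reg3g to 2.16 ± 1.85 for Reg1.

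Of the signalling genes and inducible defence genes listed, few passed with genotype. In the list of 25 IL-22, IL-17 and STAT3 signalling genes, 18 were tested in the ileum and 1 was higher in iKO at each age: Il17re, which forms part of the epithelial receptor that binds IL-17C. Its iKO minus flox difference by limma was 1.04 ± 0.15 in young mice (adjusted p = 0.0208) and 1.03 ± 0.16 in aged mice (adjusted p = 0.019). Over all 15482 genes limma called 0.0452% in the young and 0.168% in the aged ileum, in either direction. The list was chosen with earlier results of these data known, so the Il17re calls are no independent support. The list's median difference was 0.07 in the young and -0.05 in the aged ileum, against -0.01 and 0.02 over all genes. Of 16 inducible epithelial defence genes limma called 0 in the young ileum, the aged ileum and the colon, with 0, 1 and 6 at an unadjusted p under 0.05, where 641 and 1849 of 15482 and 1415 of 19585 genes were. Their median iKO minus flox difference was 0.51 in the young ileum with 15 of 16 positive, and -0.02 with 7 of 16 positive when young flox replicate 3 was left out. In the aged ileum it was 0.88 with 15 of 16 positive, and 1.32 without the 2 arrays with colon markers. In the colon it was 0.007 with 8 of 16 positive. Saa1 differed by 1.49 ± 1.17, 1.85 ± 1.26 and -0.64 ± 0.31 in the young ileum, aged ileum and colon, with adjusted p-values of 0.999, 0.579 and 0.762. The 7 Paneth markers were positive in 7 of 7 in the young (median 0.11) and in 7 of 7 in the aged ileum (median 0.31), with 0 called by limma at either age and 0 and 2 at an unadjusted p under 0.05. Their part in the Reg3g differences was not tested. Extl3, proposed as a receptor for Reg proteins, differed by -0.11 ± 0.10, -0.22 ± 0.11 and -0.11 ± 0.15 in these 3 comparisons and did not pass (adjusted p = 0.999, 0.463 and 0.964).

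**Figure D5:**
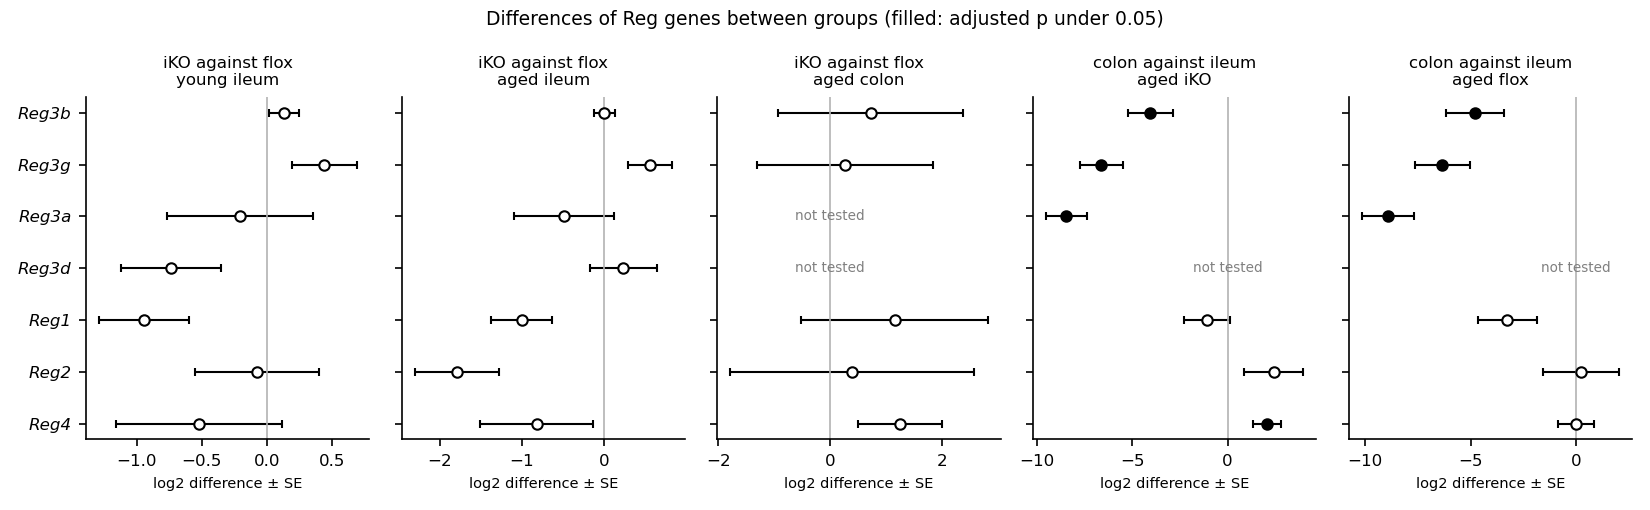
Difference of each Reg gene between groups (log2, x axis, with the standard error of the limma fit as the bar) for iKO against flox in 3 settings and for colon against ileum in aged iKO and aged flox mice. Filled points mark an adjusted p under 0.05: none in the genotype panels, Reg3b, Reg3g, Reg3a and Reg4 in aged iKO mice, and Reg3b, Reg3g and Reg3a in aged flox mice. Reg2 lay at background on every iKO ileum array and Reg3a on 2 of 7 colon arrays, so these points are not exact.

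With age in the ileum limma called 0 of 7 members in iKO mice, where 10.7% of genes passed, and 0 of 7 in flox mice, where 8.51% passed. In iKO mice 0 members had an unadjusted p under 0.05, against 4296 of all genes, and in flox mice 2 (Reg2 and Reg4), against 4106. In flox mice Reg2 was above background on 3 of 3 aged and 1 of 4 young arrays, with a fitted difference of 1.48 ± 0.52 (adjusted p = 0.0896) that was 0.41 with normexp background correction. Without young flox replicate 3, the 1 young array above background, limma called it (adjusted p = 0.00854), but against young arrays that were then all at background. Reg4 differed by 1.19 ± 0.64 in iKO (adjusted p = 0.249) and 1.49 ± 0.69 in flox mice (adjusted p = 0.188), and by 0.61 and 1.03 without the arrays with colon markers. Reg3b differed by -0.24 ± 0.11 in iKO and -0.12 ± 0.12 in flox (adjusted p = 0.202 and 0.588), values that became 0.05 and 0.08 with quantile normalization. Reg3g differed by -0.26 ± 0.25 in iKO and -0.39 ± 0.27 in flox (adjusted p = 0.535 and 0.386), and by 0.04 in iKO with quantile normalization. The 7 Paneth markers had a median of -0.29 in iKO (0 called by limma, 5 at an unadjusted p under 0.05) and -0.67 in flox mice (2 called lower, 5 at an unadjusted p under 0.05), and their part in the Reg3 values was not tested. Among the pathway genes, limma called Osmr, the oncostatin M receptor, higher with age in iKO (0.58 ± 0.17, adjusted p = 0.0487) and in flox (0.79 ± 0.19, adjusted p = 0.0236). The transcript of Pla2g2a, a phospholipase gene, was called higher in iKO (0.78 ± 0.20, adjusted p = 0.0293), and its protein was not measured. All aged ileum arrays sat at positions 3 and 4 and all young ones at 1 and 2, so age and position cannot be told apart.

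The largest differences were between colon and ileum of aged mice. Of the 6 members tested, 4 were called in iKO mice, where 43.6% of 19636 genes were, and 3 in flox mice, where 32.9% were. The Reg3 lectins were lower in the colon, with log2 differences in iKO mice of -8.47 ± 1.07 for Reg3a (adjusted p = 7.13e-05), -6.63 ± 1.13 for Reg3g (adjusted p = 6.26e-04) and -4.07 ± 1.19 for Reg3b (adjusted p = 0.0158). Leaving out colon iKO replicate 3 made the Reg3b difference -2.57 and that of Reg3g -5.31, leaving out colon iKO replicate 2 made that of Reg3b -5.10, and the calls held. In flox mice the same differences were -8.93 ± 1.23 (adjusted p = 2.74e-04), -6.34 ± 1.31 (adjusted p = 0.00333) and -4.79 ± 1.37 (adjusted p = 0.0192). That makes 3 of 6 members tested lower in the colon in each genotype, where 19.4% of 19636 genes were called lower in iKO and 13.7% in flox. The Reg3b call in flox was lost without the 2 ileum arrays with colon markers (-4.77, adjusted p = 0.0552) and without colon flox replicate 3 (-4.19, adjusted p = 0.0686). Reg3a was below background on 1 of 4 iKO and 1 of 3 flox colon arrays and entered the test through the ileum groups, where it is high, so the size of its difference is uncertain and its call adds no support to these counts. With no filter on dim probes, where every gene entered, 5 of 7 members were called in iKO and 4 of 7 in flox, against 13446 and 10905 of 27670 genes. Ileum arrays were on 4 slides and colon arrays on 4 others, so tissue and slide cannot be told apart.

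Reg4 ran the other way in iKO mice, 2.05 ± 0.73 higher in the colon (adjusted p = 0.0401, where 24.2% of genes were called higher), and did not differ beyond its error in flox mice (-0.02 ± 0.85, adjusted p = 0.988). The difference between genotypes was itself not called (2.07 ± 1.12, adjusted p = 0.822). The call in iKO was lost (adjusted p = 0.0505 to 0.114) without any 1 of 8 arrays: aged ileum iKO replicates 1, 3 and 4, aged ileum flox replicate 4, colon iKO replicates 2, 3 and 4, and colon flox replicate 1. Without the 2 ileum arrays with colon markers Reg4 was 2.63 higher (adjusted p = 0.0108). Reg1 was not called lower in the colon of iKO (-1.10 ± 1.21, adjusted p = 0.493) or flox mice (-3.26 ± 1.40, adjusted p = 0.0946). Without colon iKO replicate 4 it was -2.64 in iKO (adjusted p = 0.00531), and in flox, with the spread then estimated without that array, the adjusted p was 0.00325. The mean of Reg2 was at least 2.02-fold higher in the colon of iKO mice and was not called (adjusted p = 0.237). Above background were 3 of 4 colon and 0 of 4 ileum arrays. The bound rests on colon iKO replicate 4, without which the fitted difference fell to 0.62. The lowest iKO colon array, at -7.74, lay below every aged iKO ileum array. Reg2 was called without colon iKO replicate 3 (adjusted p = 0.0332), again against ileum arrays at background. In flox mice Reg2 differed by 0.22 ± 1.81 (adjusted p = 0.94). Reg3d was not well above background on every array of any aged group and so did not enter the test between tissues. With no filter on dim probes it differed by -2.73 in iKO (adjusted p = 0.0112) and -3.10 in flox mice (adjusted p = 0.0153), both called. It also entered, and was called, without aged ileum flox replicate 4 or aged ileum iKO replicate 3. In those runs it entered through an ileum group alone, where it is higher, so those calls add no support. It was above background on 1 of 4 iKO and 1 of 3 flox colon arrays, so these sizes are not exact.

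Colon arrays had a summed level of the 5 ileum markers of 3.68 to 4.49, against 8.26 to 9.37 on ileum arrays. The 7 Paneth markers, genes of the cells that make Reg3 lectins, were called lower in the colon for 6 of 7 in aged iKO mice and 7 of 7 in aged flox mice, with medians of -6.30 and -8.91 against 0.07 and 0.08 over all genes. Over all genes 19.4% were called lower in iKO and 13.7% in flox. Of the 7 markers 6 entered the colon fit. The other entered the test between tissues through the ileum groups alone, where it is high, and adds no support. In the iKO colon Ang4 was 7.40 and 7.39 on replicates 1 and 3, where Reg3b was 4.78 and -0.04, and 3.77 and 5.86 on replicates 2 and 4, where Reg3b was 7.55 and 5.49.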

How the data were processed

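Total RNA was hybridised to 22 one-colour Agilent 4x44K arrays. The authors deposited scanner intensity values, made with Agilent Feature Extraction (version 9.5 per the submitters' processing notes), background-subtracted and not scaled between arrays per the file headers; their series table held the same values. Here each array's processed signal was divided by its 75th percentile and put on a log2 scale, outlier-flagged spots were left out, and each gene took the value of the brightest of its probes (each member has 1). A gene entered a test if some group had it well above background on all its arrays. The tests used limma 3.58.1 (R 4.3.3, lmFit and eBayes) in 3 fits (15 ileum, 7 colon and 14 aged arrays), with Benjamini-Hochberg adjustment over all genes tested and calls at 0.05. Replicate numbers were not used as pairs: residuals of same-numbered ileum arrays of different groups correlated at -0.36 to 0.37 over 21 pairs. Those of same-numbered colon and ileum arrays of 1 genotype correlated at -0.03 to 0.12 over 7 pairs. The 14 aged arrays were treated as independent, and the labels do not state if 1 mouse gave both tissues. Sequences were handled with Biopython, tables with pandas and figures with matplotlib.

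The members and gene lists were chosen with earlier results of these data known. All members are named; from the other lists up to 4 genes per comparison are named by smallest p; likeness gives the 5 nearest genes. The limma step was tested on simulated data. The number of arrays limits the precision. Alternatives were quantile normalization, normexp, other filters, the mean over probes, slide, position, replicate block and each array left out.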

Additional observations from a re-analysis of the deposited data

Results flagged for a closer look

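Reg3g on young ileum flox replicate 3, at 7.58, lay farther from the other 3 arrays of its group (8.58 to 8.77) than Dixon's 95% critical value allows, with a ratio of gap to range of 0.840. It was the 1 such value among 28 combinations of member and group of 4 arrays, where chance flags about 5% of groups. On the same array Saa1 was 1.77, against 6.70 to 8.04 on the other young flox arrays. Reg1 (1.01), Reg2 (-3.56) and Reg3a (5.20) were the highest of the group there. No cause was tested.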

How the results depend on the processing

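No call among the 7 members within the ileum or within the colon changed under quantile normalization, normexp, the other filters, the mean over probes, the contrast groups alone, slide or the replicate block, each where it was run, or with position as a term, which was run in the aged ileum only because position and genotype coincide in the young ileum and the colon. Without young ileum flox replicate 3, members called went to 1 in the aged ileum genotype comparison and in flox ageing (Reg2 in both), against 0 to 0 without any other array. Normexp left 10 of 42 spreads over 1, against 12 to 17 with each array left out, an alternative added after seeing the data. Normexp made the fitted Reg2 differences -0.64 by genotype in the aged ileum and 0.41 with age in flox, and slide as a fixed factor made Reg3g by genotype in the aged ileum 0.15. Between tissues, Reg4 in iKO was not called with the replicate block (adjusted p = 0.0731), and Reg1 in flox was called with the contrast groups alone (adjusted p = 0.0158). Reversed differences with quantile normalization were -0.0277 for Reg3b by genotype in the aged ileum, 0.0476 and 0.0821 for Reg3b with age in iKO and flox, 0.0367 for Reg3g with age in iKO and 0.0936 for Reg4 between tissues in flox, and r of Reg1 with Reg3b in the ileum was -0.21. With normexp Reg2 between tissues in flox was -0.12. With slide as a fixed factor the aged ileum genotype differences were -0.14 for Reg3b, -0.28 for Reg3d and 0.21 for Reg4, and genotype by age was 0.0533 for Reg1, -0.29 for Reg3g and 0.73 for Reg4; with slide as a random block Reg4 between tissues in flox was 0.0032. With the replicate block, colon genotype was -0.0500 for Reg2, -0.31 for Reg3b and -0.89 for Reg3g, and genotype by age was 0.0596 for Reg1; the numbers share no stated origin, and residuals of same-numbered arrays correlated at -0.10 to 0.10 in the colon. Without the 2 aged ileum arrays with colon markers, an alternative added after seeing the data, Reg3a with age in flox was 0.0635, Reg4 between tissues in flox 0.43 and r of Reg3a with Reg3g 0.0796. Without the 2 farthest arrays, r was 0.0796 for Reg3a with Reg3g and 0.0276 for Reg3g with Reg4.

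Leaving out each array in turn, the sign changed for these differences, given as lowest to highest. Colon genotype ran from -0.38 to 1.97 for Reg1, -1.39 to 1.93 for Reg2, -0.31 to 2.22 for Reg3b and -0.89 to 1.60 for Reg3g. Young ileum genotype ran from -0.37 to 0.49 for Reg2 and -0.47 to 0.0887 for Reg3a. Aged ileum genotype ran from -0.0521 to 0.107 for Reg3b and -0.0622 to 0.55 for Reg3d. Ageing in flox ran from -1.005 to 0.0635 for Reg3a. Genotype by age ran from -0.42 to 0.22 for Reg1, -0.90 to 0.17 for Reg3a, -0.0328 to 0.40 for Reg3g and -0.88 to 0.16 for Reg4. Genotype by tissue ran from -0.21 to 1.60 for Reg3a, -0.31 to 2.22 for Reg3b and -1.46 to 1.03 for Reg3g. Colon against ileum in flox ran from -0.35 to 0.52 for Reg2 and -0.79 to 0.75 for Reg4. The causes of these changes were not tested.

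Over all genes, colon genotype calls numbered 22, against 1 with slide fixed or the replicate block and 45 with normexp. Aged ileum genotype calls numbered 26, against 5 with position as a term and 42 without the 2 arrays with colon markers. Each member has 1 probe, so the alternative of another probe was not run, and slide as a fixed factor was not run between tissues, which share no slide. Background limited Reg2, Reg3a in the colon and Reg3d.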
